A study of Mus musculus with 16 samples.

Results

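The Frizzled genes encode the membrane receptors of secreted Wnt proteins. All 10 members, Fzd1 to Fzd10, were found by symbol among the 17655 genes listed for each sample and were followed here by level and by difference between groups. Their RNA was measured in mouse preSC, precancerous neuroendocrine lung cells used to model small cell lung cancer. Per the labels, all cells are Chga-positive, lack Rb1 and Trp53 and carry 1 null allele of Rbl2. One group carried an empty lentiviral vector ("empty", 8 samples) and the other a lentivirus with Wnt5a ("Wnt5a", 8 samples). Cells of both kinds were kept in doxycycline (1 µg/mL) over the last 48 hours of culture. Whether the infected cells were 1 clone or a pool is not given in the labels, so the groups may differ by more than Wnt5a.

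Each Frizzled binds Wnt through an extracellular cysteine-rich domain and passes the signal to Dishevelled proteins inside the cell. With the co-receptors Lrp5 or Lrp6 it stabilises beta-catenin; with Ror1, Ror2, Ryk or Ptk7 it acts on cell polarity and the cytoskeleton, the branch most often tied to Wnt5a. By sequence the family divides into Fzd1, Fzd2 and Fzd7; Fzd5 and Fzd8; Fzd4, Fzd9 and Fzd10; and the more distant pair Fzd3 and Fzd6.

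Values are normalised read counts, which are whole reads divided by one factor per sample. Samples held 7526676 to 8859862 reads. Samples 1 to 4 of a group differed by little more than sampling noise, as did samples 5 to 8 (index of dispersion 0.987 to 1.05, against 5.23 to 5.44 for the other pairs), so they were averaged as libraries A and B and n = 2 per group throughout. The labels do not say that the libraries come from separate cultures, so p-values measure only the spread between these libraries. Wnt5a itself, the check of the labels, averaged 122 ± 31.4 over the empty and 1279 ± 325 over the Wnt5a libraries (SD, n = 2), a 3.38 log2 difference (limma adjusted p = 0.0010; exact two-sided permutation p = 0.333, the smallest that 2 against 2 libraries can give). Of the neuroendocrine markers checked, Chga, Chgb, Syp, Ncam1, Uchl1, Insm1 and Calca were abundant in both groups. The summed level of these 7 genes was 27583 to 28590 in empty and 23816 to 25557 in Wnt5a samples, with no overlap. All 7 had a negative difference, but only the samples of Calca did not overlap (1 of 7, against 12.4% of genes tested). Calca averaged 8248 in empty and 6657 in Wnt5a libraries. Of the 7, 0 passed the limma adjusted p of 0.05 (2.06% of genes tested), and Calca alone had an unadjusted p under it (16.1%). The part of these markers in the Frizzled values was not tested. The 2 leukocyte and 3 endothelial markers listed reached at most 4.14 in any library. Among 5 fibroblast markers, Dcn was at 597 and 340.2 in empty and at 241 and 246 in Wnt5a libraries, while the 4 others (Col1a1, Col1a2, Col3a1, Pdgfra) were at most 9.41; the summed level was 327 to 636 in empty and 235 to 263 in Wnt5a samples, and its part in the Frizzled values was not tested. The 4 lung epithelial markers listed reached at most 24.2 (Foxj1). In bulk RNA, fewer cells with a transcript and less of it per cell cannot be told apart.

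Fzd6, Fzd5 and Fzd3 carried nearly all Frizzled RNA of these cells. On a scale of normalised read count per kilobase of the longest GENCODE M21 transcript, which allows genes of unlike length to be compared, Fzd6 stood at 82.0 ± 3.45, Fzd5 at 78.3 ± 5.43 and Fzd3 at 41.8 ± 7.49 in the empty libraries (SD, n = 2). Fzd3 and Fzd6 are known for planar cell polarity, Fzd3 also for axon guidance, and Fzd5 as a receptor that works with Lrp5 and Lrp6. Together they made up 93.3% and 92.0% of the summed Frizzled level per kilobase in empty libraries A and B and 87.8% and 88.6% in Wnt5a libraries A and B. The summed level of all 10 genes was 221 and 216 per kilobase in empty libraries A and B, and 187 and 204 in Wnt5a libraries A and B.

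The other 7 members were far lower. In the empty libraries Fzd4, the receptor of Norrin in retinal vessels, stood at 5.77 ± 1.43 per kilobase and Fzd8 at 4.31 ± 0.29. Fzd10 at 2.61 ± 0.08, Fzd9 at 2.25 ± 0.04, Fzd1 at 0.82 ± 0.04 and Fzd2 at 0.25 ± 0.04 followed, and Fzd7 had no reads. Read over single samples, Fzd5 and Fzd3 did not overlap in either group (lowest Fzd5 sample 69.8 against highest Fzd3 sample 48.7 per kilobase in empty, and 46.0 against 45.3 in Wnt5a), nor did Fzd3 and Fzd4. Fzd6 and Fzd5 overlapped, and so did every pair of neighbours from Fzd4 down to Fzd7 in the empty group. In the Wnt5a group the order differed only in that Fzd9 (3.63 ± 1.51) and Fzd1 (3.08 ± 1.19) stood above Fzd10 (1.95 ± 0.10), all 3 overlapping, while Fzd10 and Fzd2 did not. The order of the leading pair depends on length: with the median length of its coding transcripts, Fzd5 was at 110 and Fzd6 at 84.4 in the empty libraries. By mean level over the libraries of both groups, the 12225 tested genes with a length had a median of 96.1 per kilobase. Of these genes, 42.4% lay below Fzd6, 39.2% below Fzd5 and 26.6% below Fzd3, against 4.74% below Fzd4.

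**Figure D1:**
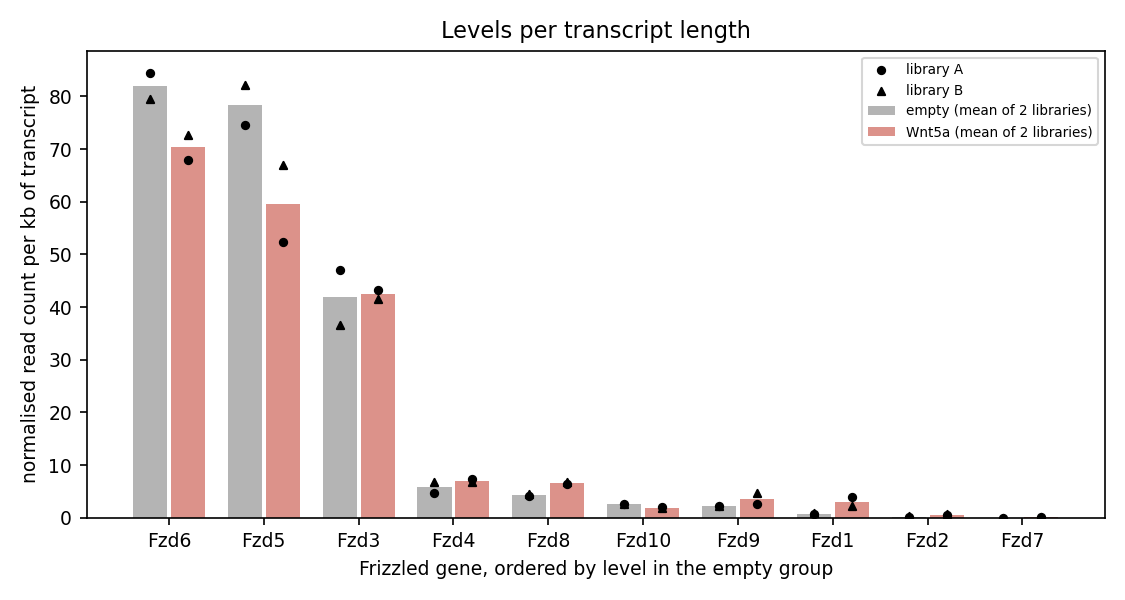
Level of each Frizzled gene in normalised read counts per kilobase of its longest transcript; bars are the mean of the 2 libraries of a group, and black points are the libraries. Fzd6, Fzd5 and Fzd3 lie above 36 in every library, and the other 7 genes stay below 8.

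The comparison of Wnt5a with empty cells asks how Frizzled RNA differs when Wnt5a, present in the empty cells too, is more abundant. The 5 members Fzd3, Fzd4, Fzd5, Fzd6 and Fzd8 had a mean normalised read count of at least 10 and were tested. None passed a limma adjusted p of 0.05 over all 12357 genes tested, where 2.06% of genes passed; edgeR and DESeq2 also called 0 of the 5. At an unadjusted limma p under 0.05 there were 3 (Fzd5, Fzd6 and Fzd8), against 16.1% of all genes tested. The 2 libraries of each group did not overlap for 4 of the 5, as for 44.2% of genes tested, and the 8 samples of each group overlapped for all 5, where 12.4% of genes did not. The absolute log2 difference had a median of 0.31 over the 5, against 0.11 over all genes tested.

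Fzd5 had the most negative difference of the tested members. In the empty samples its normalised read count ran from 483 through a median of 541 to 595, and in the Wnt5a samples from 318 through 421 to 483. The ranges meet only at their edge: 7 of 8 Wnt5a samples lay under every empty sample. By library it was 515 and 568 in empty against 363 and 462 in Wnt5a, so that each Wnt5a library was below both empty ones. The log2 difference was -0.40 (SE 0.13, 95% interval -0.71 to -0.10; limma adjusted p = 0.189). It rested in part on single libraries: without empty library A it was -0.47, without Wnt5a library A -0.23, and without Wnt5a library B -0.58. Chromosome 1, which holds Fzd5, had a median difference of -0.17 over its tested genes; with chromosome medians removed its difference was -0.23 (limma adjusted p = 0.590), and the part of that shift in the Fzd5 value was not tested.

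Fzd8, the close relative of Fzd5, had a difference of the opposite sign. Its normalised read count ran from 21.0 through 25.9 to 32.7 in the empty samples and from 31.1 through 39.0 to 47.0 in the Wnt5a samples. Libraries were at 24.5 and 27.0 in empty and at 38.0 and 41.0 in Wnt5a, on 89, 106, 162 and 175 reads. The 2 groups of samples overlapped narrowly, and the libraries did not. The log2 difference was 0.60 (SE 0.17, 95% interval 0.20 to 0.99, limma adjusted p = 0.142). It ran from 0.48 to 0.72 over pairs of 1 empty and 1 Wnt5a library. Per kilobase Fzd8 was at 6.62 ± 0.36 in Wnt5a libraries, still well under Fzd5 at 59.7 ± 10.2.

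Fzd6, which patterns hair and skin through planar polarity, had the smaller negative difference. It ran from 339 through a median of 350 to 393 in the empty samples and from 264 through 301 to 345 in the Wnt5a samples, with the highest Wnt5a sample inside the empty range. The libraries were at 365 and 344 against 294 and 314. Its log2 difference was -0.22 (SE 0.09, 95% interval -0.43 to -0.01; limma adjusted p = 0.285).

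Fzd3 had the smallest difference of the tested members. Its samples ran from 448 through 536 to 619.6 in empty and from 509 through 541 to 577 in Wnt5a, so the Wnt5a samples lay within the empty range. The empty libraries differed from each other (600.0 in A, 465 in B) by more than the Wnt5a libraries (552 and 529). Its log2 difference of 0.03 (SE 0.13, 95% interval -0.27 to 0.33; limma adjusted p = 0.947) turned to -0.15 without empty library B. Among the 4922 genes within 2-fold of its mean, those whose 4 library values lay nearest to its own, by Euclidean distance of centred log2 values, included Clstn3 (distance 0.03) and Evi5l (0.04).

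Fzd4 samples overlapped as well, although its libraries did not. It ran from 26.5 through 39.4 to 51.7 in empty samples and from 34.8 through 49.3 to 58.4 in Wnt5a samples, with most samples of both groups in the shared range. Empty library A was low (32.0), and empty B (45.6) was close to Wnt5a A and B (49.1 and 45.9). Its log2 difference was 0.31 (SE 0.20, 95% interval -0.17 to 0.78; limma adjusted p = 0.548); it was 0.06 without empty library A and 0.56 without empty library B. Tspan12, the partner of Fzd4 in Norrin signalling, was at 686 ± 3.23 and 653 ± 43.1 (SD, n = 2; limma adjusted p = 0.760).

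**Figure D2:**
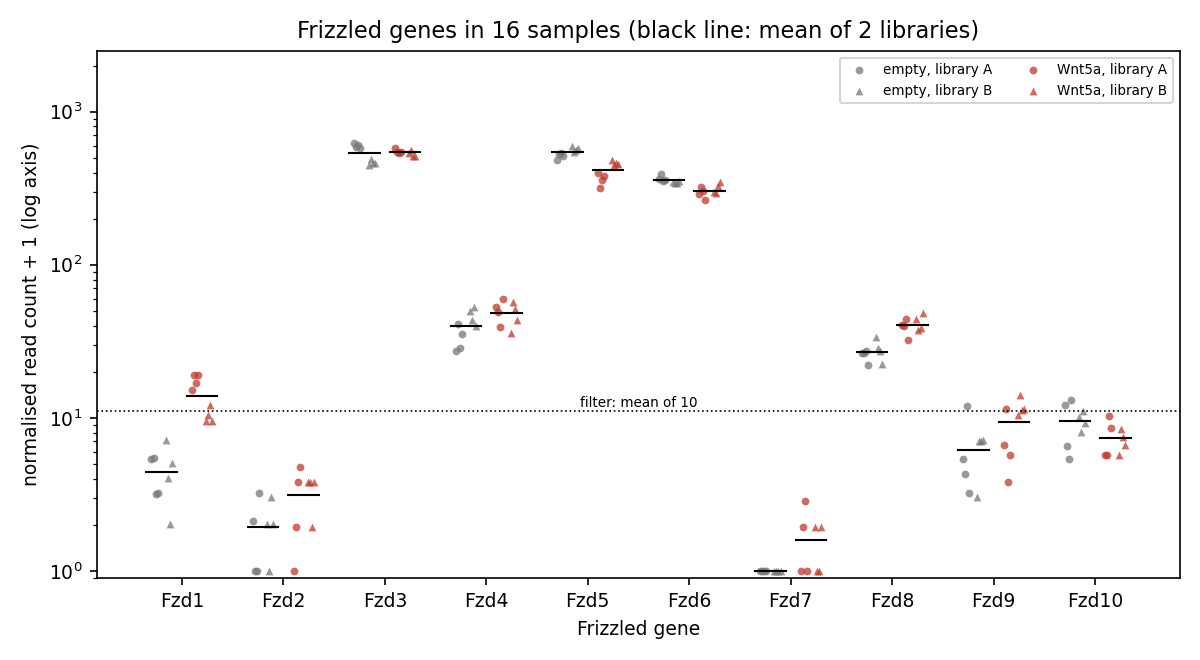
Normalised read count plus 1 of each Frizzled gene in the 16 samples, on a log axis; grey is empty, red Wnt5a, circles library A, triangles library B, and black lines the mean of 2 libraries. Fzd1 is the one gene whose 8 Wnt5a samples all lie above its 8 empty samples, and the samples of the groups did not overlap for 12.4% of genes tested either. The 8 samples of a group form 2 libraries. Fzd5 and Fzd8 meet only at the edges of their ranges.

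The other 5 members had a mean under 10 and did not enter the test. Fzd1, a receptor that can act through beta-catenin, had the largest difference of the family on the log2(value + 1) scale, which shrinks that of the genes with the fewest reads. It had 12 and 14 reads in empty libraries A and B and 70 and 40 reads in Wnt5a libraries A and B. In normalised read counts its samples ran from 1.01 through 3.57 to 6.12 in empty and from 8.46 through 12.6 to 17.9 in Wnt5a. The 2 groups of samples did not overlap, as for 12.4% of genes tested. The level in Wnt5a was 3.75 times that in empty (95% interval 2.43 to 5.99, exact, from the pooled reads and covering counting error only), a log2 difference of 1.60, which was 2.02 between the A and 1.18 between the B libraries. Its mean of 8.17 lay just under the filter. A lower minimum would admit it only through its Wnt5a samples, where it was high. Without a filter its adjusted p was 0.146 in limma and, in an analysis added after the values were seen, 0.123 in edgeR. The 2 Wnt5a libraries differed from each other by 0.75 on the log2 scale.

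Its closest relatives were nearly silent. Fzd2, a known receptor for Wnt5a with Ror2, had 3 and 4 reads in empty libraries, 8 and 10 in Wnt5a ones. That is 2.28 times the empty level, with a counting interval of 0.91 to 6.45 that includes no difference. The tested genes of chromosome 11, which holds Fzd2, had a median difference of 0.17. Fzd7, which is linked to stem cells in the gut and elsewhere, had 0 reads in both empty libraries and 3 and 2 reads in the Wnt5a libraries. A count of 0 allows up to 3 reads, the most that Fzd7 had in any library, so these reads do not settle whether Fzd7 differed.

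Fzd9 and Fzd10 were low in both groups. Fzd9 had 19 and 20 reads in empty libraries, 25 and 46 in Wnt5a ones, a ratio of 1.61 (counting interval 1.08 to 2.45), and its Wnt5a libraries differed by 0.78 on the log2 scale, more than the difference of 0.55 between groups. Fzd10 had 30 and 34 reads against 28 and 26, a ratio of 0.75 (counting interval 0.51 to 1.09). Samples of the 2 groups overlapped for both genes.

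**Figure D3:**
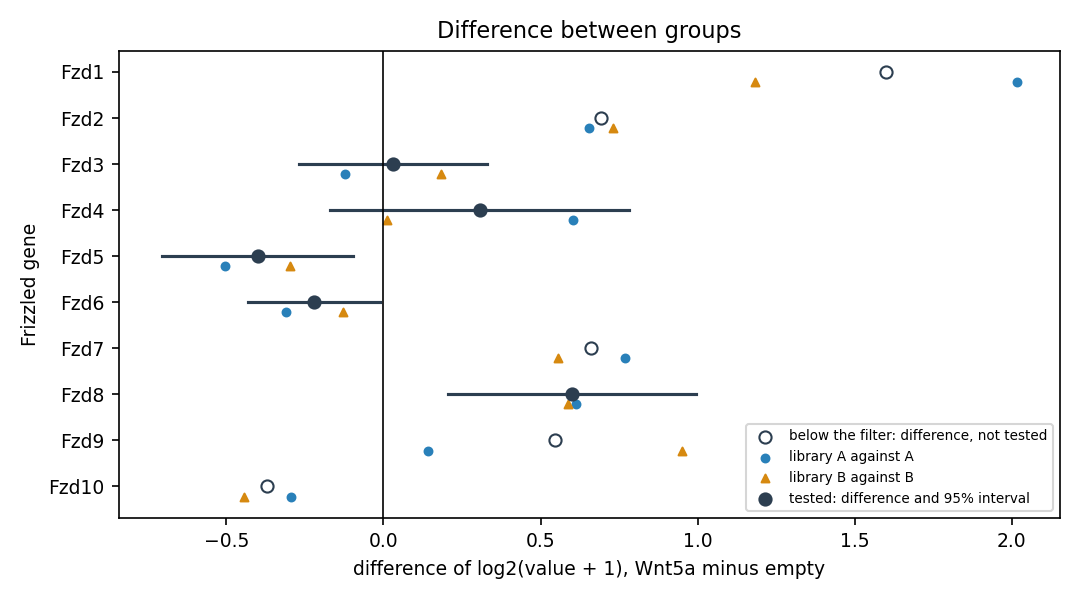
Difference of log2(normalised read count + 1), Wnt5a minus empty, for each Frizzled gene; filled points with bars are tested members with 95% limma intervals not adjusted for the number of genes, and open points are members below the filter. Small symbols give the A and B libraries separately: every gene but Fzd3 has the same sign in both. The labels do not say that same-numbered libraries are paired, and the share of all genes with such a shared sign was not computed.

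Upstream sequence is shown for 3 members that cover the range seen here: Fzd5, abundant and lower in the Wnt5a libraries; Fzd1, low and higher there; and Fzd7, without reads in the empty libraries. Each is the 250 bases before the RefSeq start (GRCm38.p6), 5′ to 3′ on the gene's strand. The set of upstream sequences used has an entry for 6 of the 10 members. Capitals mark, on either strand, the GC box bound by SP1 (GGGCGG), the CCAAT box (CCAAT), the TATA box (TATAAA) and a core of TCF/LEF sites (CTTTGA).
Fzd5, chr1:64737751-64738000 (minus strand): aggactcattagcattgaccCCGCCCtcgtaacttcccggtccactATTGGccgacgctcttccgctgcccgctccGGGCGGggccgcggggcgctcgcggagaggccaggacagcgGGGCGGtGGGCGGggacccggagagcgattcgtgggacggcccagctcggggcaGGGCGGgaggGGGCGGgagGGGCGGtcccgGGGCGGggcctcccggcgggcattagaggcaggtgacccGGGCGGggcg
Fzd1, chr5:4758217-4758466 (minus strand): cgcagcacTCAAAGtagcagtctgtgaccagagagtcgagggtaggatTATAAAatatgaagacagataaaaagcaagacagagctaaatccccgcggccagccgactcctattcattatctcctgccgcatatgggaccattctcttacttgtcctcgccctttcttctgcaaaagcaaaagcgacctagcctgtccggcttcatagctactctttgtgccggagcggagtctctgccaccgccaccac
Fzd7, chr1:59481897-59482146 (plus strand): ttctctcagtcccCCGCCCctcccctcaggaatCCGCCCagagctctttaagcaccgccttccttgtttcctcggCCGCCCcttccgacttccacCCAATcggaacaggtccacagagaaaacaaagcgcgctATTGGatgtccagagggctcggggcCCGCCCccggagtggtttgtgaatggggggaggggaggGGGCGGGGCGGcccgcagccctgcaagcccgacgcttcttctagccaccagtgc
The Fzd5 stretch is 76.4% G and C with 32 CpG dinucleotides, 9 GC boxes and 1 CCAAT box. Fzd7, almost unread here, is similar in kind, with 65.2% G and C, 17 CpG dinucleotides, 6 GC boxes (2 of them overlapping by 1 base) and 2 CCAAT boxes. Fzd1 has 51.2% G and C, 12 CpG dinucleotides and no GC or CCAAT box, with 1 TATA and 1 TCF/LEF match. Over the 13503 listed genes with an entry, the median was 58.8% G and C and 14 CpG dinucleotides; 53.4% held a GC box, 35.8% a CCAAT box, 7.62% a TATA box and 11.7% the TCF/LEF letters. These matches describe letters only, and no binding was measured.

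The genes that work with Frizzled receptors were taken from lists of 58 genes, of which 48 are listed, 28 were tested and 10 are not analysed here. Wnt5a was the only one past the limma adjusted p of 0.05; of the 27 others tested, 0 passed and 8 had an unadjusted p under 0.05 (background 2.06% and 16.1%). With edgeR and DESeq2, 0 of the 27 passed as well. Their median log2 difference was -0.04, against 0.0026 over all genes tested.

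Among the co-receptors, Ryk, which binds Wnt5a in axon guidance, was the most abundant per kilobase, at 365 ± 17.6 in empty and 368 ± 8.59 in Wnt5a libraries. Lrp6 was at 134 ± 15.8 and 129 ± 11.9 per kilobase. Ror2, a Wnt5a receptor kinase, was at 88.9 ± 8.38 and 80.3 ± 7.55, close to Fzd6 and Fzd5, and its relative Ror1 at 10.8 ± 2.36 and 9.45 ± 1.34. The limma adjusted p of these 4 was between 0.613 and 0.957. Lrp5 and Ptk7 had larger differences, and their 8 samples of each group did not overlap, as for 12.4% of genes tested. Lrp5 went from a normalised read count of 397 to 529 in empty samples to 565 to 637 in Wnt5a samples, a log2 difference of 0.38 (limma adjusted p = 0.127). Over chromosome 19, which holds Lrp5, the median difference was 0.36, and the part of this shift was not tested. Ptk7, a planar polarity receptor, was at 11.0 to 21.0 in empty and 23.5 to 47.1 in Wnt5a samples, a log2 difference of 0.93 (limma adjusted p = 0.088). Over pairs of 1 empty and 1 Wnt5a library, the log2 difference ran from 0.24 to 0.51 for Lrp5 and from 0.71 to 1.15 for Ptk7.

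Inside the cell and at the surface, none of the genes that relay or limit Frizzled signals passed the threshold in limma, edgeR or DESeq2. Dvl3, the Dishevelled gene with the highest normalised read count, was at 878 ± 5.13 and 928 ± 34.4 (limma adjusted p = 0.694). Dvl2 had a log2 difference of 0.26 and Dvl1 of 0.0022 (limma adjusted p = 0.197 and 0.993). Znrf3, a ubiquitin ligase that removes Frizzled from the surface, was at 484 ± 17.1 and 461 ± 25.2 (adjusted p = 0.777 in limma), whereas its paralog Rnf43 was at most 0.55 in any library. Lgr6, which with R-spondin restrains these ligases, averaged 63.1 ± 12.5 and 34.1 ± 13.2, a -0.91 log2 difference (limma adjusted p = 0.176). Lgr6 differed by -1.50 to -0.31 log2 over pairs of 1 empty and 1 Wnt5a library. It shares chromosome 1, and its median of -0.17, with Fzd5. Wls, which carries Wnt proteins to the cell surface, was at 481 ± 17.6 and 520 ± 64.0 (limma adjusted p = 0.717). Kremen1, a receptor of Dkk antagonists, was at 1305 ± 215 and 1102 ± 43.1 (limma adjusted p = 0.404). Its log2 difference was -0.44 between the A and -0.03 between the B libraries. Dvl2, Znrf3 and Kremen1 lie on chromosome 11, whose tested genes had a median difference of 0.17. The part of that shift in their values was not tested.

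Of the 6 other Wnt ligands tested, 0 passed in limma, edgeR or DESeq2. The highest were Wnt5b, with a normalised read count of 278 to 324 in empty and 239 to 289 in Wnt5a samples, and Wnt3, whose empty libraries stood at 332 and 263 against 252 and 231 with Wnt5a. Their limma adjusted p-values were 0.417 and 0.340. The log2 difference of Wnt3 ran from -0.52 to -0.06 over pairs of 1 empty and 1 Wnt5a library. Wnt9a followed, with 132 and 135 in empty and 103 and 139 in Wnt5a libraries (limma adjusted p = 0.733). Wnt3 and Wnt9a lie on chromosome 11 too, with its median difference of 0.17. Wnt4 stood at 41.4 and 31.6 against 55.4 and 46.7, and Wnt16 at 14.6 and 12.7 against 18.3 and 13.4 (limma adjusted p = 0.278 and 0.803). Wnt7b averaged 13.7 in the empty and 7.86 in the Wnt5a libraries (limma adjusted p = 0.196) and reached the filter only through the empty group. Per kilobase, Wnt5a moved from 17.4 ± 4.48, below Fzd6, Fzd5 and Fzd3, to 182 ± 46.4, above every Frizzled; the length of the lentiviral transcript is not given, so the second level is approximate.

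**Figure D4:**
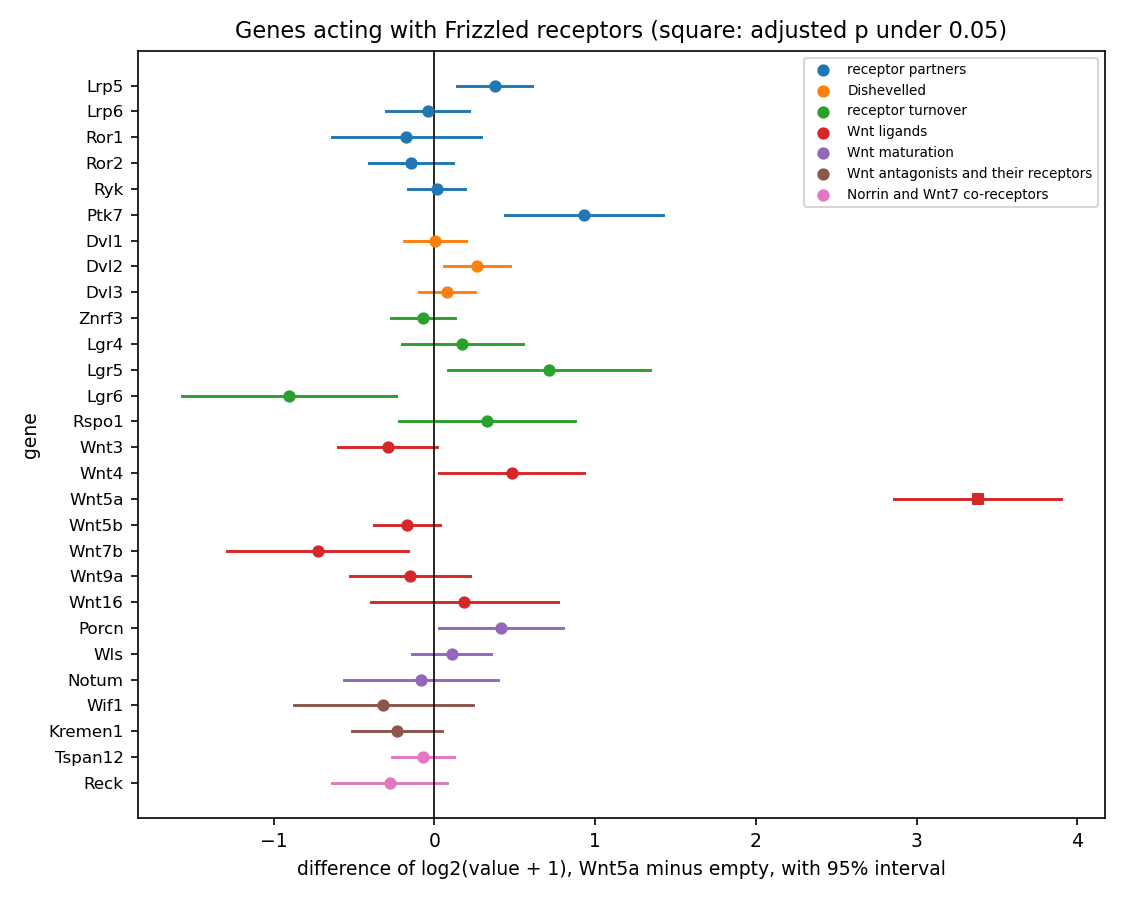
Difference of log2(normalised read count + 1), Wnt5a minus empty, with 95% limma intervals for the 28 tested genes of the lists, coloured by list. Wnt5a, the square at 3.38, is the only gene past the adjusted threshold, and the other points lie between -0.91 and 0.93.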

How the data were processed

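RNA was sequenced after oligo-dT selection from 500 ng of total RNA. The submitters' processing notes name TopHat, Bowtie, HTSeq and DESeq2 without versions or roles, and the genome build is not given in the sources used here. The deposited values are a signal per gene, called normalised in the file names; 100% were whole multiples of one step per file (0.934 to 1.11, tolerance 0.01), and dividing by it gave whole reads. Strand use is not stated. Genes with a mean of at least 10 were tested on log2(value + 1) with limma 3.58.1 (R 4.3.3, eBayes with trend) and Benjamini-Hochberg adjustment over all genes; log2 differences on that scale understate low genes. edgeR 4.0.16 and DESeq2 1.42.0 were run on recovered reads summed per library, and all tests were tried on simulated data. Members and lists were chosen with earlier results of these data known. Named genes were the members, Wnt5a and, per list, the called genes and the gene of highest value. The other list genes (Ryk, Ror1, Ror2, Lrp5, Ptk7, Dvl1, Dvl2, Rnf43, Lgr6, Wnt3, Wnt4, Wnt5b, Wnt7b, Wnt9a and Wnt16, and those under other observations) were chosen after their values were seen. Chromosomes come from the RefSeq table of GRCm38.p6 and lengths from GENCODE M21. Intervals from reads cover counting error only. A neuroendocrine marker and a gene near Fzd3 in pattern are not reported here.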

Additional observations from a re-analysis of the deposited data

Results flagged for a closer look

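Over the 19 gene and group combinations examined, 1 sample stood apart from the 7 others of its group in 2 cases. For independent samples chance gives about 1 in 20. The 8 samples of a group form 2 libraries, so that rate does not strictly hold here. Fzd6 was at 393 in empty sample 2, the next sample being at 363. Within empty library A the reads of Fzd6 had an index of dispersion of 0.946. Fzd9 was at 11.0 in empty sample 3, on 10 reads, the next sample being at 6.14. Both samples belong to library A, whose 4 samples differ by little more than sampling noise over all genes.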

How the results depend on the processing

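Against 0 Frizzled genes called, counting all 16 samples separately gave 3 (Fzd5, Fzd6, Fzd8), where 4377 of all 12357 genes tested were called. That setting counts samples that differ by little more than sampling noise as replicates. The replicate block gave 2 (Fzd5, limma adjusted p = 0.0090, and Fzd8, 0.035), against 17.0% of all genes. The block with a minimum of 5 gave 3 (Fzd5, Fzd8 and Fzd1), against 2174 genes called in all. Fzd1 reaches that minimum only through its Wnt5a samples. Same-numbered libraries deviated together (Pearson r 0.44 across genes), but 2 pairs do not show that the numbers pair the samples. The pathway lists without Wnt5a (0 called) gave 2 without the filter, 1 with quantile normalization, 1 without trend, 12 over 16 samples, 6 with the block, 7 with the block and a minimum of 5, and 0 to 4 with 1 library left out. All genes called (254) became 146 without the filter, 102 at a minimum of 50, 158 without trend, 4377 over 16 samples, 2095 with the block, 538 in DESeq2, 138 to 1098 with 1 library left out and, added later, 167 in edgeR without the filter and 2174 with the block and a minimum of 5. With 1 library left out, the lone library is assumed to vary like the others. There Fzd3 ranged from -0.15 to 0.21, Fzd4 from 0.06 to 0.56, Fzd5 from -0.58 to -0.23, Fzd6 from -0.27 to -0.17 and Fzd8 from 0.53 to 0.67. In the other settings the 5 tested members kept their sign. The cause of these changes was not tested. Depth limits Fzd2 and Fzd7 most, with at most 10 reads per library.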

Other observations

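Some low genes of the pathway lists, below the filter and picked after their values were seen, also differed in reads. Rspo4, an R-spondin that raises surface Frizzled, had 10 and 4 reads in empty libraries A and B and 45 and 25 in Wnt5a libraries A and B, a ratio of 4.43 (counting interval 2.47 to 8.52). Adgra2, a co-receptor for Wnt7, had 2 and 2 reads against 16 and 15. Dkk3, of the Dickkopf family, went the other way, with 20 and 22 reads against 9 and 6 (ratio 0.32, counting interval 0.16 to 0.58). Rspo3 and Wnt8b each had 0 reads in both empty libraries and 8 in each Wnt5a library. Samples of the groups overlapped for all 5 genes.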
